A study of Mus musculus with 21 samples.

Results

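Ribosome biogenesis was examined through 48 genes that encode subunits and factors of RNA polymerase I (Pol I) and proteins of the nucleolus that process ribosomal RNA (rRNA) and assemble the ribosomal subunits. The genes were chosen by name, and all 48 were found among the 24421 genes of the RNA sequencing tables. All 48 passed the filter on low counts and were among the 12786 genes tested. By role, 7 of the 48 act in Pol I transcription, 3 in box C/D and 4 in box H/ACA small nucleolar ribonucleoproteins (snoRNPs). A further 6 are grouped as nucleolar hub proteins, 15 assemble the small subunit and 13 the large subunit.

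The cells were bone marrow B cell precursors of 53BP1-/- C57BL/6 mice, grown in primary culture with 10 ng/ml IL-7. They were transduced on days 2 and 3 of culture and collected between days 7 and 9 after transduction. EV cells received the empty retroviral vector MIGR1, BCR-ABL1 cells MIGR1 with the fusion kinase BCR-ABL1p210, and C-MYC cells MIGR1 with the transcription factor C-MYC. All of the cells, the controls included, were therefore of the genotype that lacks the DNA repair factor 53BP1. Each oncogene was delivered by a retroviral vector to cells in short-term culture. Each condition had 2 libraries of poly(A) RNA, 6 in all. The study's methods speak of duplicate experiments, and neither they nor the labels say whether these used separate mice or cultures, so p-values measure only the spread between these samples, which may be technical.

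Eukaryotic ribosomes are assembled mainly in the nucleolus. Pol I transcribes the rRNA precursor from tandem rDNA repeats, snoRNPs guide its chemical modification, and a large set of assembly factors folds and cleaves it while ribosomal proteins are added. MYC proteins are well known to bind and activate many genes of this pathway, and the size of the nucleolus is a classic mark of growing and dividing lymphoid cells.

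Library totals lay between 20687092 and 24095955 counts. The 48 genes held between 424 counts, for Polr1e, and 116228 counts in any library, so the spread between replicates, and not the depth, limited the precision. The Myc row, which checks the labels, held 3869 and 3277 counts in EV libraries. It held 7239 and 8381 with BCR-ABL1 and 37920 and 27450 with C-MYC. In C-MYC libraries vector and endogenous transcripts cannot be told apart, whereas the vectors of the other conditions carried no C-MYC. Trp53bp1, which encodes 53BP1, still held between 342 and 723 counts in every library, and transcripts can persist from a disrupted gene. The EV replicates differed more than the others. The chi-square of their counts was 35.5 per degree of freedom, against 8.43 for BCR-ABL1 and 15.8 for C-MYC. For 42 of the 48 genes the lower EV value was that of replicate 1, with a median of replicate 2 over replicate 1 of 1.16. The 14 markers of B cell precursors were present in all libraries. Their levels are given as CPM (counts relative to library totals, scaled by TMM). The sums were 9871 and 8925 CPM in EV libraries, 9196 and 8318 with BCR-ABL1 and 7641 and 6151 with C-MYC. Cd24a alone held between 1939 and 3304 CPM in each library. Gene positions are those of the GENCODE annotation of GRCm38.

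MYC binds with its partner MAX to the E-box CACGTG, and the promoters of the genes were therefore searched for these letters. RefSeq promoters (GRCm38.p6, from 250 bases before to 50 bases after the annotated start) were at hand for 41 of the 48 genes. CACGTG, which reads the same on both strands, stood in a promoter of 8 of these 41 genes (19.5%), in 11.7% of the tested genes and in 8.09% of all genes of the table. The related hexamer CACGCG, searched on both strands, stood in 36.6% of the 41 genes, against 19.8% of the tested genes and 10.5% of all. These matches describe letters and not binding, which was not measured here. The 8 genes with the E-box are shown because they carry the letters that MYC is known to read. For 3 of them 150 bases before the start are given, Nop2 at chr6:125131733-125131882 on the plus strand, Utp18 at chr11:93885767-93885916 on the minus strand and Rrn3 at chr16:13780549-13780698 on the plus strand. Capitals mark the E-box, whose first base lies at -60, -20 and -48 from the start.
Nop2: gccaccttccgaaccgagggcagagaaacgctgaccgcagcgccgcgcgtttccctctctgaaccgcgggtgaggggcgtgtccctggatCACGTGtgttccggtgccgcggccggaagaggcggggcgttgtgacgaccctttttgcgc
Utp18: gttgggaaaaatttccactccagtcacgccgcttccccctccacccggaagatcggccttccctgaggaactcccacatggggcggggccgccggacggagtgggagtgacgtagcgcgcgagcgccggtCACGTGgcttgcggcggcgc
Rrn3: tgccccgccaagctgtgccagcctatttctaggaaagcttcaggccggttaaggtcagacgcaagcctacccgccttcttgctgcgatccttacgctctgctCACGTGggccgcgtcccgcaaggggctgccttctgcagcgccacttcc

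Rrn3 held another E-box at -215. In the other 5 genes the E-box lay just after the annotated start, and only a window of at most 30 bases around it is given. These were Pes1 (chr11:3963965-3963994, plus strand, first base of the E-box at 3), Wdr43 (chr17:71616220-71616249, plus strand, at 18), Ltv1 (chr10:13193092-13193121, minus strand, at 29), Utp20 (chr10:88826765-88826789, minus strand, at 38) and Mybbp1a (chr11:72441355-72441376, plus strand, at 41).
Pes1: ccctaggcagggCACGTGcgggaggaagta
Wdr43: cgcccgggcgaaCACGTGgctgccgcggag
Ltv1: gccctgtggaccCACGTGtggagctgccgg
Utp20: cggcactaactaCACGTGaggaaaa
Mybbp1a: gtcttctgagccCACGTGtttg

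The first comparison asked how these genes differed once C-MYC was expressed. In C-MYC against EV, 47 of the 48 genes rose and 0 fell at an adjusted p below 0.05 (edgeR, quasi-likelihood, with p-values adjusted after Benjamini and Hochberg over all 12786 genes). Among all tested genes 18.6% rose and 24.5% fell. No gene of the 48 was lower at an unadjusted p below 0.05 with edgeR, DESeq2 or limma, whereas 29.5% of all tested genes were with edgeR. The median log2 fold change of the 48 genes was 1.10 (a 2.15-fold difference), with a range from 0.11 for Ddx52 to 1.58 for Npm1, while the median of all tested genes was -0.08. In all 48 genes both C-MYC libraries lay above both EV libraries, which was so for 31.5% of all tested genes. A difference of at least 2-fold was reached by 29 of the 48, and 26 exceeded the 95th percentile of all tested genes, a log2 fold change of 1.04. With libraries scaled by their totals only, the median of all genes moved to -0.19, with 1796 genes higher and 3778 lower in place of 2383 and 3132, and the median of the 48 genes was 0.99.

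Levels of marker genes of other cell types differed between these conditions as well. Summed levels of 10 myeloid markers were 1288 and 1179 CPM in EV libraries, between 142 and 163 in BCR-ABL1 and between 201 and 355 in C-MYC libraries. Those of 6 stromal markers were 103 and 157 CPM in EV and at most 6.02 in the oncogene-expressing cells. Those of 8 T and NK cell markers were 229 and 177 CPM in EV libraries, 132 and 117 with BCR-ABL1 and 59.3 and 54.6 with C-MYC. Lck alone held 116.7 and 93.1 CPM in EV libraries, 124.5 and 108.9 with BCR-ABL1 and 56.1 and 49.1 with C-MYC. It thus made up most of the sum with either oncogene. Lck was not lower in BCR-ABL1 against EV (log2 fold change 0.15 ± 0.15; edgeR adjusted p = 0.533). No marker of these 3 lists was at 0 in every library, whereas 3 of 6 erythroid markers were, and the erythroid list summed to at most 1.75 CPM. In C-MYC against EV, 9 of 10 myeloid and all 5 tested stromal markers were lower at an adjusted p below 0.05 (edgeR). So were 8 of 8 T and NK cell and 11 of 14 B cell precursor markers. The stromal marker Dcn did not pass the filter on low counts. The part of these cells in the results was not tested. In bulk libraries, fewer cells of a type and less RNA per cell cannot be told apart.

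**Figure D1:**
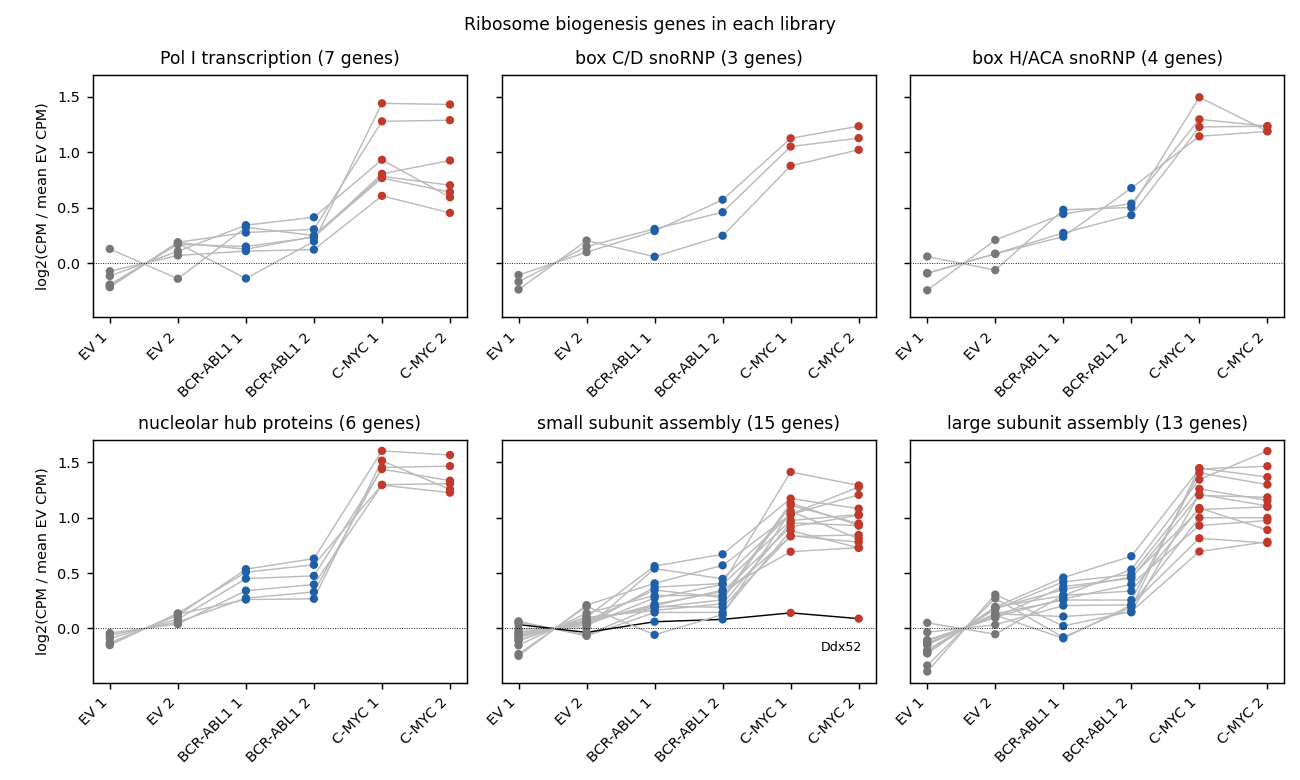
Level of each of the 48 genes in each of the 6 libraries, as log2 of its CPM over the mean EV CPM (vertical axis), by role (panels). Each point is 1 gene in 1 library, and lines join the points of a gene. The C-MYC points lie above the BCR-ABL1 points of the same gene in every panel, and Ddx52 (black line) stays near 0.

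Pol I transcription was the role with the smallest median log2 fold change in C-MYC against EV, 0.77, and all 7 genes rose. Polr1a encodes the largest, catalytic subunit of Pol I (chr6:71909053-71984935). It was measured at 62.2 and 82.3 CPM in EV libraries, 87.4 and 89.3 with BCR-ABL1 and 175 and 177 with C-MYC. C-MYC against EV gave a log2 fold change of 1.28 ± 0.14 (SE; edgeR adjusted p = 0.000591). Polr1b encodes the second largest subunit (chr2:129100995-129126594). Its levels were 44.7 and 58.3 CPM in EV libraries, 46.8 and 59.0 with BCR-ABL1 and 140 and 139 with C-MYC. The EV and BCR-ABL1 libraries overlapped, and the C-MYC libraries stood apart (log2 fold change 1.44 ± 0.17 against EV; edgeR adjusted p = 0.000681). The other subunits changed less in C-MYC cells. Polr1e, a Pol I-specific subunit, rose by 0.87 ± 0.16 and Polr1c, which is shared with Pol III, by 0.74 ± 0.13 on the log2 scale. Among the factors, Tcof1 (treacle, a nucleolar scaffold of Pol I transcription) rose by 0.77 ± 0.14, Ubtf (UBF, which keeps rDNA open and recruits Pol I) by 0.71 ± 0.14, and Rrn3 (TIF-IA, which makes Pol I able to initiate) by 0.53 ± 0.11. Rrn3 had the smallest log2 fold change among the 47 genes that rose.

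The snoRNP proteins rose together in C-MYC cells. Box C/D snoRNPs guide ribose methylation of rRNA, and all 3 of the genes for their core proteins among the 48 were higher, with a median log2 fold change of 1.09. Fbl, the methyltransferase fibrillarin, was measured at 226 and 260 CPM in EV libraries, 297 and 361 with BCR-ABL1 and 530 and 572 with C-MYC (chr7:28169710-28179269). The conditions did not overlap, and C-MYC exceeded EV by 1.18 ± 0.13 on the log2 scale (edgeR adjusted p = 0.000544). Nop58, a scaffold protein of the same particle, had 241 and 300 CPM in EV libraries, 335 and 372 with BCR-ABL1 and 561 and 592 with C-MYC (chr1:59684971-59719044). Again no library of a condition reached into the next (log2 fold change 1.09 ± 0.13 against EV; edgeR adjusted p = 0.000687). Its partner Nop56 rose by 0.95 ± 0.16.

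Box H/ACA snoRNPs guide the conversion of uridine to pseudouridine, and their proteins are also part of telomerase. All 4 rose in C-MYC cells, at log2 fold changes within the narrow range of 1.17 for Gar1 to 1.35 for Nop10 (median 1.25). Nop10, the smallest protein of the core, was measured at 70.0 and 64.3 CPM in EV libraries, 93.7 and 95.1 with BCR-ABL1 and 189 and 153 with C-MYC (chr2:112261926-112263269; log2 fold change 1.35 ± 0.13 against EV; edgeR adjusted p = 0.000415). Dkc1, the pseudouridine synthase dyskerin, had 138 and 189 CPM in EV libraries, 222 and 237 with BCR-ABL1 and 402 and 385 with C-MYC (chrX:75095854-75109777). EV replicates of Dkc1 lay far apart, but each condition stayed separate from the next (log2 fold change 1.27 ± 0.15 against EV; edgeR adjusted p = 0.000729). Nhp2, an RNA-binding protein of the core, rose by 1.23 ± 0.11.

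The nucleolar hub proteins had the largest median log2 fold change of all roles in C-MYC against EV. All 6 rose, and their log2 fold changes lay between 1.26 and 1.58 with a median of 1.39. Npm1 (nucleophosmin), which organises the granular part of the nucleolus, was measured at 1427 and 1693 CPM in EV libraries, 2260 and 2414 with BCR-ABL1 and 4734 and 4613 with C-MYC (chr11:33152287-33163206). C-MYC cells had 3.00-fold the EV level, a log2 fold change of 1.58 ± 0.11 (edgeR adjusted p = 0.000175), the largest of the 48 genes. Gnl3 (nucleostemin), a GTPase of proliferating cells, had 127 and 138 CPM in EV libraries, 160 and 166 with BCR-ABL1 and 362 and 365 with C-MYC (chr14:31012433-31019152; log2 fold change 1.46 ± 0.10 against EV; edgeR adjusted p = 0.000175). Replicates of Gnl3 agreed closely and the conditions were separate. Ncl (nucleolin), which binds rRNA precursors and rDNA chromatin, was measured at 1901 and 2318 CPM in EV libraries, 2998 and 3139 with BCR-ABL1 and 5179 and 5217 with C-MYC (chr1:86344719-86359400). The C-MYC level was 2.46-fold the EV level (edgeR adjusted p = 0.000306). Mybbp1a, a nucleolar protein linked to Pol I transcription and rRNA processing, had 408 and 460 CPM in EV libraries, 592 and 603 with BCR-ABL1 and 1175 and 1093 with C-MYC (chr11:72441355-72451768; log2 fold change 1.39 ± 0.10 against EV). Ddx21, an RNA helicase of rRNA transcription and processing, had 391 and 414 CPM in EV libraries, 510 and 530 with BCR-ABL1 and 986 and 941 with C-MYC (chr10:62580251-62602281; log2 fold change 1.26 ± 0.09 against EV). For both genes the 3 conditions were separate (edgeR adjusted p = 0.000189 for each in C-MYC against EV). Nolc1, which chaperones snoRNPs, rose by 1.39 ± 0.13.

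Of the 15 factors of the small subunit, 14 rose in C-MYC cells, with a median log2 fold change of 0.97. Rrp9, a protein of the U3 snoRNP, was measured at 44.2 and 46.4 CPM in EV libraries, 58.6 and 60.0 with BCR-ABL1 and 120 and 111 with C-MYC (chr9:106475963-106485424; log2 fold change 1.35 ± 0.11 against EV; edgeR adjusted p = 0.000306). Utp20, a very large scaffold protein of early precursors, had 85.5 and 86.1 CPM in EV libraries, 125 and 117 with BCR-ABL1 and 175 and 208 with C-MYC (chr10:88746607-88826804; log2 fold change 1.16 ± 0.12 against EV; edgeR adjusted p = 0.00047). Wdr75, of the complex that first binds the rRNA precursor, had 64.6 and 74.9 CPM in EV libraries, 103 and 111 with BCR-ABL1 and 157 and 148 with C-MYC (chr1:45795166-45823619; log2 fold change 1.13 ± 0.12 against EV; edgeR adjusted p = 0.000506). In all 3 genes BCR-ABL1 libraries lay between EV and C-MYC libraries without overlap. Other proteins of that first complex rose as well, Wdr43 by 1.03 ± 0.11, Heatr1 by 0.97 ± 0.10 and Utp15 by 0.81 ± 0.11. The remaining increases were 1.12 ± 0.17 for Rrp12, 1.03 ± 0.12 for Nop14, 1.00 ± 0.11 for Utp18, 0.94 ± 0.13 for Utp14a, 0.94 ± 0.17 for Bysl, 0.81 ± 0.11 for Noc4l and 0.71 ± 0.12 for Ltv1. Among the helicases, Ddx10 rose by 0.84 ± 0.12 on the log2 scale.

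Ddx52, an RNA helicase of small subunit assembly, was the 1 gene of the 48 that did not pass the test (chr11:83942062-83963088). It was measured at 92.7 and 88.3 CPM in EV libraries, 94.4 and 95.8 with BCR-ABL1 and 99.8 and 96.2 with C-MYC. All values lay within a narrow range, although the conditions did not overlap. The log2 fold change of C-MYC against EV was 0.11 ± 0.10 with a 95% interval from -0.13 to 0.36 (edgeR adjusted p = 0.403), and it turned to -0.0028 with libraries scaled by their totals only and to -0.0045 with limma on FPKM.

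All 13 factors of the large subunit rose in C-MYC cells, with a median log2 fold change of 1.16. Nop16 was measured at 35.2 and 47.0 CPM in EV libraries, 50.5 and 59.4 with BCR-ABL1 and 104 and 125 with C-MYC (chr13:54584185-54590090; log2 fold change 1.48 ± 0.18 against EV; edgeR adjusted p = 0.000741). Wdr12 forms the PeBoW complex with Pes1 and Bop1, which is needed for maturation of the large subunit. It had 37.6 and 50.2 CPM in EV libraries, 60.4 and 69.0 with BCR-ABL1 and 119 and 121 with C-MYC (chr1:60069785-60098645; log2 fold change 1.45 ± 0.16 against EV; edgeR adjusted p = 0.000549). Its partners rose by 1.08 ± 0.14 for Bop1 and 0.99 ± 0.11 for Pes1. Ebna1bp2, a nucleolar assembly factor, had 86.1 and 99.0 CPM in EV libraries, 120 and 127 with BCR-ABL1 and 213 and 210 with C-MYC (chr4:118620799-118627776; log2 fold change 1.19 ± 0.11 against EV; edgeR adjusted p = 0.00037). The conditions of these 3 genes were separate. Rrp1b rose by 1.41 ± 0.20, Wdr74 by 1.35 ± 0.13, Noc2l by 1.21 ± 0.13 and Nop2, an rRNA methyltransferase, by 1.16 ± 0.12. Rrs1 rose by 1.00 ± 0.14, the helicase Ddx18 by 0.95 ± 0.12 and the GTPase Gnl2 by 0.79 ± 0.10. Noc3l, the partner of Noc2l on pre-ribosomes, was the least certain of the increases, at 0.74 ± 0.21 (edgeR adjusted p = 0.0256). Noc3l did not pass with library totals, with limma on FPKM, or without either C-MYC library, and Rrn3 did not pass without C-MYC replicate 1.

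**Figure D2:**
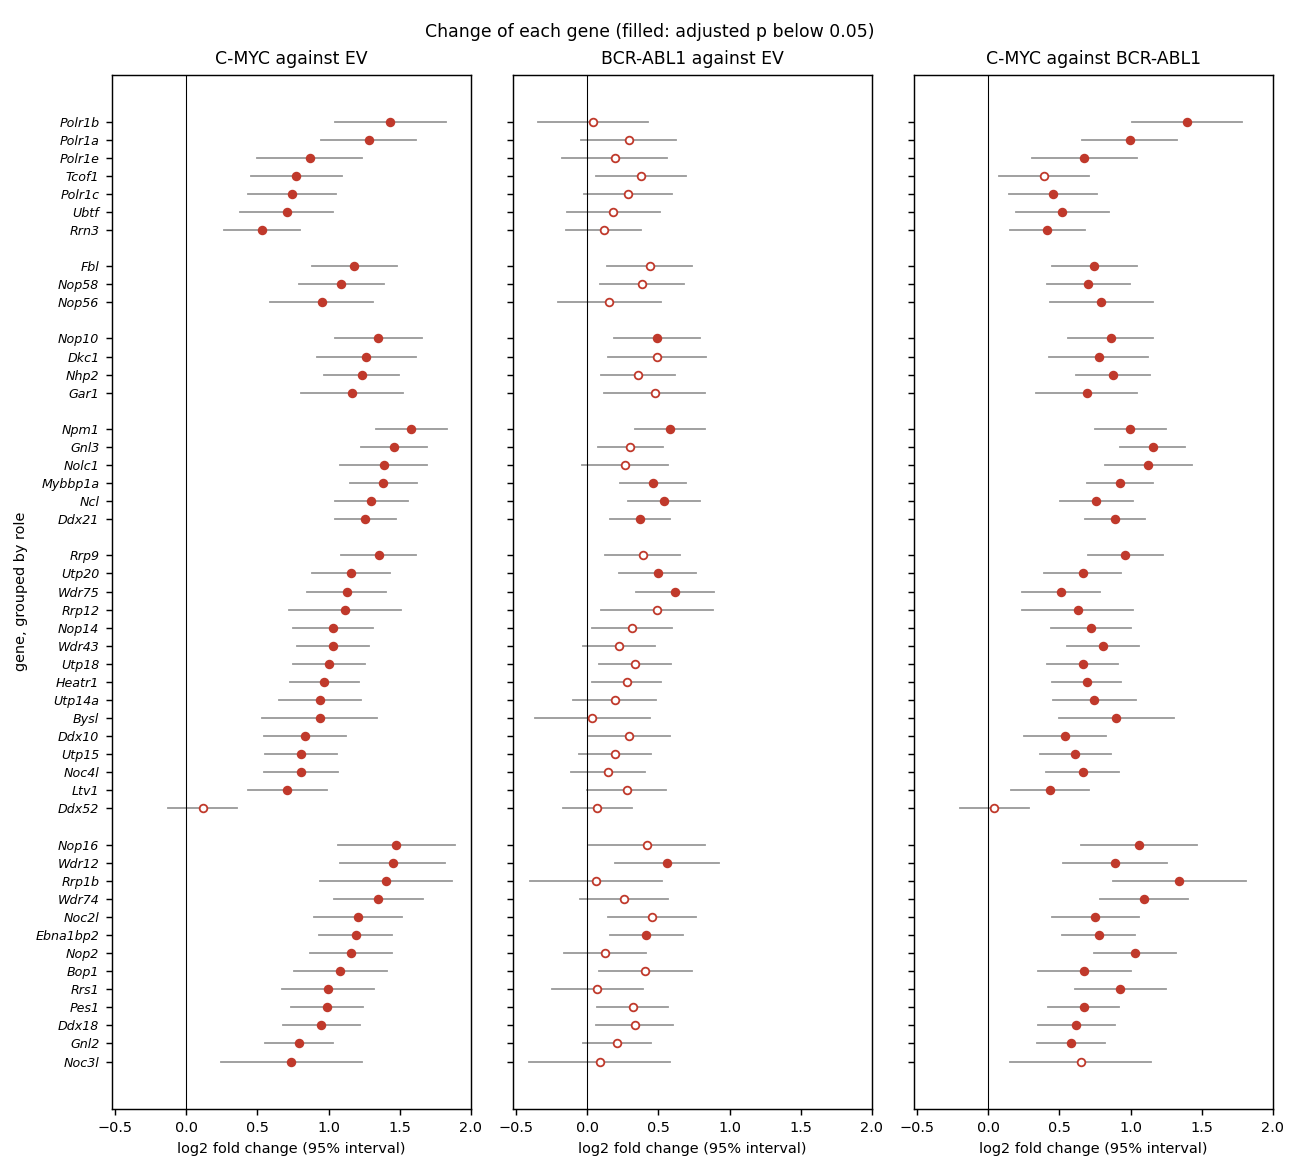
Log2 fold change of each gene (horizontal axes) with its 95% interval in the 3 comparisons, ordered by role and, within a role, by C-MYC against EV. Filled points have an adjusted p below 0.05 (edgeR), which holds for 47, 9 and 45 of the 48 genes from left to right.

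BCR-ABL1 was compared with EV in the same model, with the same EV libraries as controls. In BCR-ABL1 against EV, 9 of the 48 genes rose and 0 fell at an adjusted p below 0.05 (edgeR), while 5.08% of all tested genes rose and 12.0% fell. At an unadjusted p below 0.05, 28 of the 48 were higher with edgeR, against 12.8% of all tested genes. None was lower at that threshold with edgeR, DESeq2 or limma, against 18.4% of all tested genes with edgeR. The median log2 fold change was 0.31 (a 1.24-fold difference), against 0.00 for all tested genes, and no gene reached 2-fold. Only 1 of the 48 exceeded the 95th percentile of all tested genes, a log2 fold change of 0.61. In 39 of the 48 genes both BCR-ABL1 libraries lay above both EV libraries, which held for 29.2% of all tested genes. The 9 with overlap were Polr1b, Polr1e, Ubtf, Nop56, Bysl, Nop2, Rrp1b, Rrs1 and Noc3l.

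The largest difference was that of Wdr75, with a log2 fold change of 0.62 ± 0.12 (1.53-fold; edgeR adjusted p = 0.012). Of the nucleolar hub proteins 4 of 6 rose. These were Npm1 by 0.58 ± 0.11 (edgeR adjusted p = 0.00958), Ncl by 0.54 ± 0.11, Mybbp1a by 0.46 ± 0.10 and Ddx21 by 0.37 ± 0.09. Large subunit factors that rose were 2 of 13, Wdr12 by 0.56 ± 0.16 and Ebna1bp2 by 0.42 ± 0.11. The other 2 genes were Utp20, at 0.49 ± 0.12, and Nop10, at 0.49 ± 0.13. Several genes lay close to the threshold, with adjusted p-values of 0.0486 for Wdr12, 0.0536 for Rrp9, 0.0543 for Noc2l and 0.0544 for Fbl (edgeR).

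None of the 7 genes of Pol I transcription passed in BCR-ABL1 against EV with all libraries in edgeR, DESeq2 or limma, and 1 of them, Tcof1, had an unadjusted p below 0.05 with edgeR. Without EV replicate 2, Polr1a (0.51; edgeR adjusted p = 0.0152) and Ubtf (0.40; edgeR adjusted p = 0.0484) passed, and without EV replicate 1 Polr1c did (0.43; edgeR adjusted p = 0.0452). With all libraries the log2 fold changes of the 7 genes lay between 0.04 for Polr1b and 0.38 for Tcof1. For Polr1b the 95% interval was -0.35 to 0.42. Of the 3 box C/D proteins 0 passed, although Fbl (0.44 ± 0.13) and Nop58 (0.39 ± 0.13) had an unadjusted p below 0.05 with edgeR. Both passed with DESeq2 and also in edgeR without a filter on low counts, with a block for the replicate number, or without EV replicate 2, and Fbl passed with DESeq2's size factors too. All 48 log2 fold changes were above 0, but the 4 smallest, those of Bysl, Polr1b, Rrp1b and Rrs1, turned below 0 with libraries scaled by their totals only, and all of these but Rrp1b also with limma on FPKM. With that scaling 397 of all genes were higher and 1646 lower, in place of 650 and 1530.

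The count of 9 depended on the libraries, the model and the tool. It was 4 with library totals and 20 with DESeq2, where 3.1% and 7.06% of all tested genes rose, and 24 with the replicate number as a block, where 9.55% rose. It was 23 without EV replicate 2, 1 without BCR-ABL1 replicate 1 and 0 without BCR-ABL1 replicate 2, fits in which 7.66%, 0.966% and 0.891% of all tested genes rose. In the last 2 fits 21 and 8 of the 48 genes were higher at an unadjusted p below 0.05 (edgeR), against 6.93% and 5.29% of all tested genes. In BCR-ABL1 against EV all 10 myeloid and 4 of 5 tested stromal markers were lower at an adjusted p below 0.05 (edgeR). So were 7 of 8 T and NK cell markers, all but Lck. Of the 14 B cell precursor markers 3 were lower and 1 was higher at that threshold. The part of these cells in the differences was not tested.

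**Figure D3:**
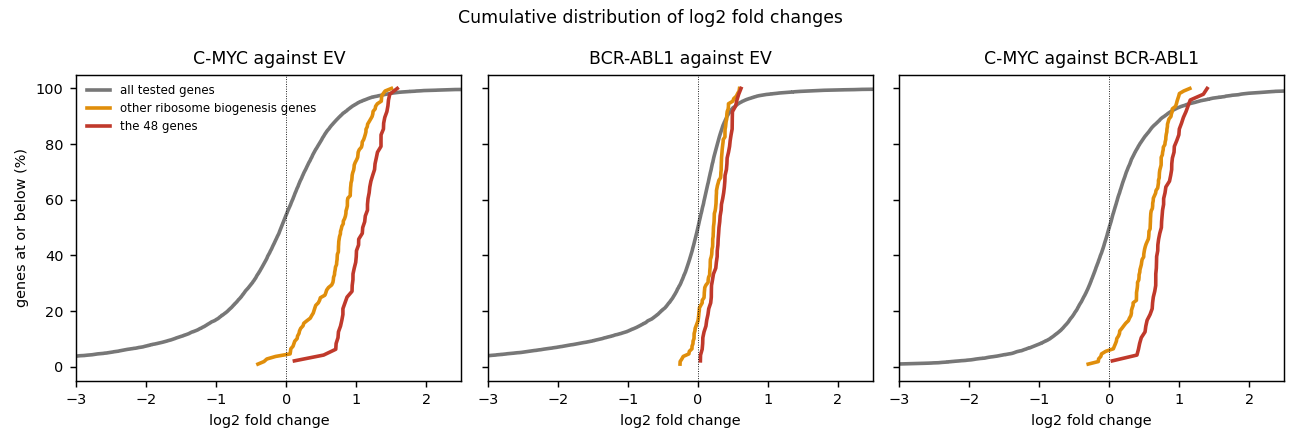
Cumulative share of genes (vertical axes, %) at or below each log2 fold change (horizontal axes) for all 12786 tested genes (grey), 109 other ribosome biogenesis genes (orange) and the 48 genes (red). Medians of the 48 genes were 1.10, 0.31 and 0.75 from left to right, and those of all tested genes lay between -0.08 and 0.00.

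The difference between the oncogenes was tested directly. In C-MYC against BCR-ABL1, 45 of the 48 genes were higher and 0 lower at an adjusted p below 0.05 (edgeR), and again none was lower at an unadjusted p below 0.05 with edgeR, DESeq2 or limma. Among all tested genes 11.5% were higher and 11.9% lower, and 18.9% were lower at an unadjusted p below 0.05 (edgeR). The median log2 fold change was 0.75 (1.68-fold). Only 2 of the 48 exceeded the 95th percentile of all tested genes, a log2 fold change of 1.225. Both C-MYC libraries exceeded both BCR-ABL1 libraries in all 48 genes and in 34.5% of all tested genes. The 3 genes that did not pass were Tcof1 (0.39 ± 0.14; edgeR adjusted p = 0.0741), Noc3l (0.65 ± 0.21; edgeR adjusted p = 0.063) and Ddx52 (0.04 ± 0.10; edgeR adjusted p = 0.798). Tcof1 and Noc3l passed with DESeq2, and in edgeR without a filter, with only the 4 libraries compared, with the replicate block, or without either EV library. In this comparison 10 of 14 B cell precursor, 2 of 5 tested stromal and 1 of 8 T and NK cell markers were lower. Of the myeloid markers 4 of 10 were higher, and all of these calls were at an adjusted p below 0.05 (edgeR). The part of these cells in the differences was not tested.

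The genes with the largest differences between the oncogenes were Polr1b and Rrp1b. Polr1b exceeded its BCR-ABL1 level by 1.40 ± 0.17 on the log2 scale (2.63-fold; edgeR adjusted p = 0.00197) and Rrp1b by 1.34 ± 0.20 (2.54-fold; edgeR adjusted p = 0.00427). Rrp1b was measured at 40.0 and 60.8 CPM in EV libraries, 47.7 and 57.5 with BCR-ABL1 and 137 and 130 with C-MYC. Both genes were thus high in C-MYC cells and overlapped between EV and BCR-ABL1 cells. The other 5 genes with at least a 2-fold difference were Gnl3 (1.16 ± 0.10), Nolc1 (1.12 ± 0.13), Wdr74 (1.09 ± 0.13), Nop16 (1.06 ± 0.18) and Nop2 (1.03 ± 0.12). Npm1 was at this limit, with 1.00 ± 0.11. The differences were smallest, apart from Ddx52, for Tcof1, for Rrn3 at 0.42 ± 0.11, for Ltv1 at 0.43 ± 0.12 and for Polr1c at 0.46 ± 0.13. Wdr75, which led in BCR-ABL1 against EV, was 0.51 ± 0.12 higher in C-MYC than in BCR-ABL1 cells. The count of 45 fell to 14 without BCR-ABL1 replicate 1, 29 without BCR-ABL1 replicate 2, 27 without C-MYC replicate 1 and 26 without C-MYC replicate 2, each of which leaves 1 library in an arm that is assumed to vary like the other conditions. In these 4 fits the share of all tested genes that were higher fell as well, to 1.33%, 3.55%, 4.46% and 3.66%.

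A ladder of EV below BCR-ABL1 below C-MYC, with no overlap between the libraries of neighbouring conditions, was seen for 39 of the 48 genes and for 13.3% of all tested genes. The other 9 were those in which EV and BCR-ABL1 libraries overlapped. Among these, the BCR-ABL1 level was 1.03-fold the EV level for Polr1b and Bysl, 1.04-fold for Rrp1b and 1.05-fold for Rrs1 by edgeR's estimate. EV replicate 2 took part in each of these overlaps, since it held the higher EV value in all 9 genes.

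The summed counts of the 48 genes took 0.878% and 1.05% of all counts in EV libraries, 1.19% and 1.28% with BCR-ABL1 and 2.09% and 2.12% with C-MYC. The 3 conditions did not overlap, and the means were 0.967% ± 0.125, 1.23% ± 0.061 and 2.11% ± 0.020 (SD, n = 2). Ncl and Npm1 alone made up between 39.2% and 45.5% of the summed counts. Without these 2 genes the share was 0.534% and 0.632% in EV libraries, 0.670% and 0.723% with BCR-ABL1 and 1.16% in each C-MYC library, in the same order.

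**Figure D4:**
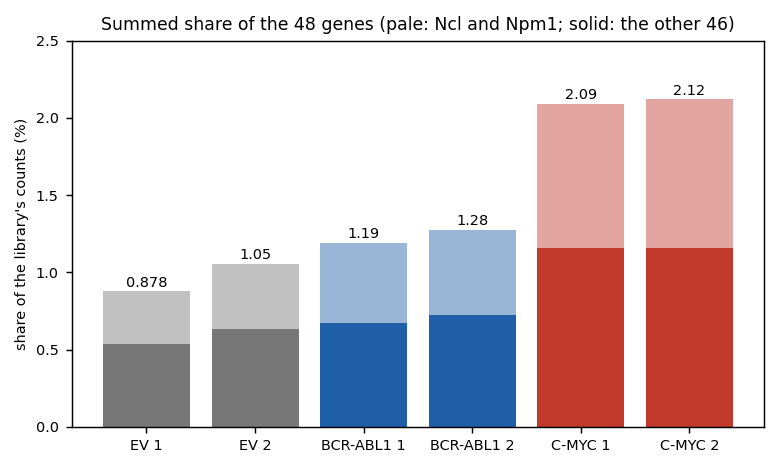
Summed counts of the 48 genes as a percentage of all counts in each library (vertical axis, from 0). The pale part of a bar is Ncl and Npm1 and the solid part the other 46 genes. The C-MYC bars reach 2.09% and 2.12%, against 0.878% and 1.05% for EV.

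Levels between genes were compared on the deposited FPKM scale, which takes transcript length into account. The median of the 48 genes was 30.2 FPKM with EV, 35.7 with BCR-ABL1 and 62.1 with C-MYC, whereas the median of all expressed genes was 4.20, 4.09 and 3.87 FPKM. Each of the 48 genes lay above the median of expressed genes in every condition. Npm1 had the highest level, with 1562 ± 244 FPKM in EV libraries, 2181 ± 120 with BCR-ABL1 and 4243 ± 8.44 with C-MYC (SD, n = 2), followed by Ncl with 979 ± 153, 1354 ± 52.3 and 2211 ± 78.7 FPKM. Lowest were Polr1e, with 5.94 ± 1.19 FPKM in EV and 9.96 ± 0.90 in C-MYC cells, and Bysl, with 6.21 ± 0.57 FPKM in BCR-ABL1 cells. For 5 genes (Polr1a, Gar1, Nhp2, Ltv1 and Pes1) FPKM was more than 4 times off the level from counts per kilobase of annotated exon, and their place among the levels is uncertain.

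The 48 genes lie on 18 chromosomes, with at most 7 on 1 chromosome (chr11). Genes for small nucleolar RNAs lie inside 6 of the 48, Nop56, Nop58, Dkc1, Ncl, Gnl3 and Wdr43, which hold 19 snoRNA genes on their own strand. This was 12.5% of the 48 genes and 2.18% of all tested genes with an annotation. These 6 genes had a median log2 fold change of 1.18 in C-MYC against EV and the other 42 genes of 1.10. For 18 genes exons overlap those of a gene on the opposite strand, for example Bysl with Ccnd3 and Nop56 with Idh3b. How strand and multiply mapped reads were counted is not stated in the sources used here, so reads of such pairs, and of genes with processed copies such as Npm1, may be shared.

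The 8 genes with an E-box in the promoters shown above had log2 fold changes in C-MYC against EV between 0.53 for Rrn3 and 1.39 for Mybbp1a, with a median of 1.02. The other 33 genes with a RefSeq promoter had a median of 1.17. The ranges overlapped widely. Gnl3 and Nop16, which lack CACGTG in the window, were among the genes with the largest increases, and Nop16 held the related hexamer CACGCG there. Npm1, Fbl, Bop1, Tcof1, Rrs1, Gnl2 and Rrp12 had no RefSeq promoter at hand and are in neither group. The part of the E-box in the increases was not tested.

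The wider pathway was represented by 109 other genes of ribosome biogenesis. In C-MYC against EV 87 rose and 1 fell at an adjusted p below 0.05 (edgeR), against 18.6% and 24.5% of all tested genes. The median log2 fold change was 0.79. By role, 5 of 9 Pol I subunits and factors rose (median 0.46) and 7 of 8 snoRNP assembly factors (1.11). So did 32 of 39 small subunit factors (0.83) and 33 of 41 large subunit factors (0.81). In the RNA exosome group 10 of 12 genes rose (0.74). In BCR-ABL1 against EV 11 rose and 0 fell, with a median of 0.22, against 5.08% and 12.0% of all tested genes. At an unadjusted p below 0.05 (edgeR) 36 were higher and 0 lower, against 12.8% and 18.4% of all tested genes. In C-MYC against BCR-ABL1 73 were higher and 0 lower, with a median of 0.58, against 11.5% and 11.9% of all tested genes. At an unadjusted p below 0.05 (edgeR) 1 was lower, against 18.9% of all tested genes.

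Cirh1a, a small subunit factor also named Utp4, had the largest increase of the 109 genes in C-MYC against EV, at 1.50 ± 0.14 on the log2 scale (edgeR adjusted p = 0.000365). Its levels were 73.4 and 64.3 CPM in EV libraries, 96.9 and 97.6 with BCR-ABL1 and 216 and 173 with C-MYC. It was followed by Mdn1, a giant ATPase that remodels large subunit precursors (1.41 ± 0.24), and Mrto4, a large subunit factor (1.38 ± 0.11). At the other end was Ttf1, which terminates Pol I transcription, with 32.1 and 35.4 CPM in EV libraries, 29.4 and 27.3 with BCR-ABL1 and 23.3 and 27.7 with C-MYC (-0.41 ± 0.15; edgeR adjusted p = 0.0573). Gltscr2, also named Nop53, was the 1 gene that passed as lower, at 330 and 303 CPM in EV libraries, 282 and 266 with BCR-ABL1 and 267 and 241 with C-MYC (-0.32 ± 0.10; edgeR adjusted p = 0.0397). It did not pass without either BCR-ABL1 or either C-MYC library, nor with DESeq2's size factors or test. The kinase Riok3 came next (-0.28 ± 0.11; edgeR adjusted p = 0.0664).

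**Figure D5:**
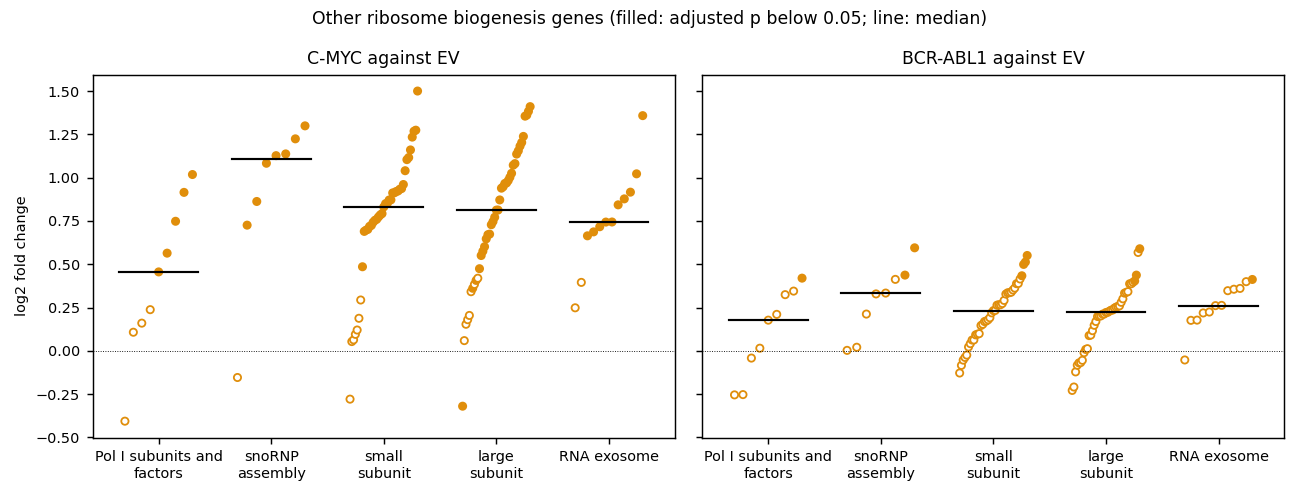
Log2 fold change (vertical axis) of the 109 other ribosome biogenesis genes by role in C-MYC against EV (left) and BCR-ABL1 against EV (right). Each point is 1 gene, filled where the adjusted p is below 0.05 (edgeR), and lines are medians. In the left panel 88 points are filled and in the right panel 11.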

How the data were processed

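Poly(A) RNA sequencing of 6 libraries was analysed, 2 each of EV, BCR-ABL1 and C-MYC cells, grouped by the sample labels. The ChIP-seq samples of the series were not analysed here. The authors aligned reads to GRCm38/mm10 with STAR 2.5.0 and deposited raw read counts for each gene symbol. FPKM, also deposited by the authors, came from StringTie 1.3.0. The read counter, its treatment of strand and of multiply mapped reads, and the way FPKM was combined per symbol are not given in the sources used here. The tables held 0 columns of other samples.

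Counts were fitted with edgeR 4.0.16 (R 4.3.3), all 6 libraries sharing 1 model and 1 estimate of the spread, and with condition as the only term. Library sizes were scaled by TMM. Genes passed filterByExpr with a minimum count of 10, which left 12786 of 24421, and calls rest on the quasi-likelihood test with p-values adjusted after Benjamini and Hochberg over all of them and a threshold of 0.05. The common biological coefficient of variation was 0.151. SE was derived from the log2 fold change and its quasi-likelihood F, and intervals are 95%. Alternatives were DESeq2's size factors, library totals, no filter, DESeq2 1.42.0, limma 3.58.1 on log2 of FPKM with a pseudocount of 1 or 0.1 and with or without a filter (above 1 FPKM in at least 2 libraries), only the 4 libraries compared, a block for the replicate number, and leaving out each library. Tables and plots were made with Python 3.11.15, pandas 2.3.3 and matplotlib 3.10.9.

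The 48 genes, their roles, the 109 other genes and the marker lists were chosen with earlier results of these data known. Values per library are given for the 2 genes of each role with the largest change in C-MYC against EV among those averaging 50 counts or more, for genes called in BCR-ABL1 against EV, and for genes not called in C-MYC against EV. Rrp1b is given outside this rule and was chosen after its values were seen. Of the other genes, the 3 highest, the 3 lowest and any called lower are named. RefSeq promoters of GRCm38.p6 were matched by symbol. Gene positions and exon lengths are from GENCODE vM21 of GRCm38, 1-based.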

Additional observations from a re-analysis of the deposited data

How the results depend on the processing

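In C-MYC against EV the count of higher genes among the 48 lay between 45 and 47 under every alternative, and 0 were lower. In BCR-ABL1 against EV the 9 higher genes became 4 with library totals, 16 without a filter on low counts, 20 with DESeq2, 2 with limma on log2(FPKM + 1) and on log2(FPKM + 0.1), 0 with limma without a filter, and between 0 and 23 when 1 library was left out. In C-MYC against BCR-ABL1 the 45 became 27 with limma without a filter and between 14 and 47 when 1 library was left out. These last fits hold fewer libraries, and the cause of the changed counts was not tested. Counts over all tested genes moved as well. In BCR-ABL1 against EV, 788 of 17273 genes were called higher without a filter and 277 of 11012 with limma on log2(FPKM + 1). With limma it was 276 of 11012 on log2(FPKM + 0.1) and 277 of 17805 without a filter. With only the 4 libraries compared it was 402 of 12617, beside 3 of the 109 other ribosome biogenesis genes. The main fit had 650 of 12786. In C-MYC against BCR-ABL1, limma without a filter called 565 of 17805 genes higher, in place of 1468 of 12786. With 2 libraries in a condition, p-values had few degrees of freedom, and genes near the threshold changed sides with small changes in the model.

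Of the 109 other genes, the 1 lower in C-MYC against EV became 0 with DESeq2's size factors, without a filter, with DESeq2 or with only the 4 libraries compared, 3 with library totals and with limma on log2(FPKM + 1) or log2(FPKM + 0.1), 2 with limma without a filter, and between 0 and 2 when 1 library was left out. The 11 higher in BCR-ABL1 against EV became 4 with library totals, 20 with DESeq2, 2 in each of the 3 limma fits, 3 with only the 4 libraries compared, and between 0 and 22 when 1 library was left out. They were 22 without EV replicate 2, 0 without either BCR-ABL1 library and 5 without either C-MYC library. The 73 higher in C-MYC against BCR-ABL1 became 38 with limma without a filter and between 7 and 88 when 1 library was left out, with 7 and 29 without BCR-ABL1 replicate 1 and 2, and 26 and 31 without C-MYC replicate 1 and 2. The 0 lower there became 1 with library totals and with only the 4 libraries compared, and between 0 and 1 when 1 library was left out.

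Genes whose direction turned had small log2 fold changes. In BCR-ABL1 against EV, library totals gave -0.033 for Polr1b, -0.036 for Bysl, -0.011 for Rrp1b and -0.0018 for Rrs1. Limma with a pseudocount of 1, with or without a filter, gave -0.017 for Polr1b, -0.020 for Bysl and -0.0051 for Rrs1, and with a pseudocount of 0.1 it gave -0.017, -0.021 and -0.0053. When 1 library was left out, values ranged from -0.139 to 0.246 for Polr1b, -0.157 to 0.271 for Bysl, -0.203 to 0.399 for Rrp1b, -0.089 to 0.218 for Rrs1, -0.043 to 0.396 for Nop56, -0.000604 to 0.275 for Nop2 and -0.211 to 0.481 for Noc3l. For Ddx52, library totals gave -0.0028 in C-MYC against EV and -0.0042 against BCR-ABL1, and limma gave -0.0045 and -0.0084 with a pseudocount of 1 and -0.0046 and -0.0087 with 0.1.

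The median percentile of the 48 genes among expressed genes was 81.3 with EV, 83.5 with BCR-ABL1 and 90.1 with C-MYC by FPKM, and 87.1, 88.5 and 94.0 by counts per kilobase of exon. The numbers 1 and 2 are shared by the conditions, but nothing says that they mark a shared mouse, culture or day. Deviations of same-numbered samples from their condition means correlated with r between 0.204 and 0.273 over the 3 pairs of conditions. With the replicate number as a block, 24 of the 48 genes were higher in BCR-ABL1 against EV, and of the 109 other genes 29 were higher in BCR-ABL1 against EV, 3 were lower in C-MYC against EV and 1 was lower in C-MYC against BCR-ABL1. The block moved no other of these counts by over 1.5 times.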

Other observations

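Within the 109 other ribosome biogenesis genes, the 11 that rose in BCR-ABL1 against EV came from all 5 roles, and they are named here after their values were seen. The largest differences were those of Naf1, a factor of box H/ACA particle assembly, with a log2 fold change of 0.59 (edgeR adjusted p = 0.0304), and Rsl1d1, a large subunit factor, with 0.59 (edgeR adjusted p = 0.00969). Pno1, Rcl1, Cirh1a and Riok2 of small subunit maturation followed with 0.55, 0.51, 0.50 and 0.43. Nmd3, the export adaptor of the large subunit, had 0.44 and Mrto4 had 0.40. Nhp2l1, the protein that first binds box C/D RNA, had 0.44, Taf1d, a subunit of the Pol I promoter selectivity factor, had 0.42, and Dis3, a nuclease of the exosome, had 0.41. None of the 109 genes passed with edgeR when either BCR-ABL1 library was left out, and 18 and 9 of them were then higher at an unadjusted p below 0.05 without replicate 1 and replicate 2, as were 6.93% and 5.29% of all tested genes.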
